A study of Homo sapiens with 11 samples.

Results

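RUNX1, RUNX2 and RUNX3 encode the DNA-binding subunits of core-binding factor, and CBFB encodes the partner subunit that they share. These 4 genes were taken by Ensembl identifier from a table of 58037 genes, and all 4 had enough counts to be tested. Paired-end RNA sequencing covered 11 libraries from human cells of acute myeloid leukaemia (AML). The established line OCI-AML3 has mutated NPM1 and DNMT3A, and OCI-AML3-FLT3-ITD carries in its name an internal tandem duplication of the receptor kinase FLT3. The compound FHD-286, which blocks BRG1 and BRM, the motor subunits of BAF chromatin remodellers, was given at 100 nM for 16 h. The groups were OCI-AML3 controls (n = 3), OCI-AML3 with FHD-286 (n = 3), FLT3-ITD controls (n = 3) and FLT3-ITD cells with FHD-286 (n = 2). The labels do not say whether controls received a vehicle, how the FLT3-ITD line was made, or whether it is 1 clone. They also do not say that replicates were separate cultures, so p-values here measure only the spread between these libraries, which may be technical.

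Each RUNX protein binds DNA through its Runt domain, and CBFB, which does not touch DNA itself, stabilises that contact and protects the RUNX protein from degradation. RUNX1 is required for the emergence of blood stem cells and for myeloid and megakaryocytic differentiation. RUNX2 directs bone formation, and RUNX3 acts in cytotoxic lymphocytes and in sensory neurons. Mutations and fusions of RUNX1 and CBFB are recurrent lesions in AML.

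Total counts ran from 58397190 to 79172389 per library. The library labelled FLT3-ITD control 2 stood apart from its group. Levels are given as CPM, counts scaled to library size and normalised. On the log2 scale its correlation was 0.974 and 0.976 with FLT3-ITD controls 1 and 3, whose own correlation was 0.998, and 0.988 to 0.991 with the OCI-AML3 controls. FLT3 itself was at 178 and 203 CPM in FLT3-ITD controls 1 and 3, at 53.4 in control 2 and at 41.1 to 43.3 in the OCI-AML3 controls. The mitochondrial share was 8.85% there and 4.48% to 7.54% elsewhere. Results of the 4 genes and counts over gene lists that rest on this library are therefore given with it and without it, and other named genes where leaving it out changed a call or moved the log2 value by over 1.5 times. Markers of the labelled myeloid type were detected in every group, all 7 of 7, and their summed level ran from 645 to 1452 CPM. Among markers of other cells, the 6 lymphoid ones summed to at most 3.92 CPM, with CD3E at 0 throughout. The 6 erythroid and megakaryocyte markers summed to at most 0.110 CPM, with HBB and PF4 at 0. The 6 stromal and epithelial markers summed to at most 0.287 CPM, with CDH1 at 0. In bulk RNA, fewer cells of a type and less RNA per cell cannot be told apart.

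The promoters of the RUNX genes can hold the site that RUNX proteins bind. RefSeq (GRCh38.p14) promoter windows were found for all 3 RUNX genes, 5 windows in all, each from 250 bases before to 50 after an annotated start. TGTGGT and its reverse complement ACCACA were searched in them on both strands. Of 35116 such windows in the genome, 13.1% held this motif. The first promoter of RUNX2 held 4 matches and that of RUNX3 held 2. The second promoters of both genes, and the window of RUNX1, held none. The RUNX1 window lies inside the annotated gene, which runs to 36004667 on the minus strand, so starts further upstream were not searched. The stretches before that start of RUNX1 (chr21:34888700-34888949, minus strand) and the first start of RUNX3 (chr1:24965011-24965260, minus strand) are shown. The RUNX3 window lies at the upstream end of its gene and the RUNX1 window does not. Any link of the motif to the drug effects was not tested. Capitals mark the motif in either orientation.
RUNX1: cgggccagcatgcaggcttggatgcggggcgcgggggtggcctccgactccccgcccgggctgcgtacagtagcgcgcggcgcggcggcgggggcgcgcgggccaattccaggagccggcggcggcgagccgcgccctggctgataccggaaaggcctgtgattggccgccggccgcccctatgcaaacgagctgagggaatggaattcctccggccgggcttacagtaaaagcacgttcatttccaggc
RUNX3: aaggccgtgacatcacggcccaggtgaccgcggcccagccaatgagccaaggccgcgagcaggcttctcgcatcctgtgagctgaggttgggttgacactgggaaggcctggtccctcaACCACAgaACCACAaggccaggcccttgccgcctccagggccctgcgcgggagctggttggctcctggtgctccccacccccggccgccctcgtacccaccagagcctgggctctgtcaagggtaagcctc

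The longest run of bases shared by the first windows of RUNX2 and RUNX3 had 18 bases and held a pair of motif copies. It was found in 2 of the 35116 windows, those of these 2 genes. Since the run was picked from these 2 windows, that count is a description and no test. The run lay at positions 14 to 31 after the RUNX2 start and from 133 to 116 bases before the RUNX3 start. The windows hold no start at the upstream end of RUNX1, so whether that gene has the run there was not examined. The 30 bases around it are shown for RUNX2 (chr6:45328338-45328367, plus strand) and RUNX3 (chr1:24965120-24965149, minus strand), again with the motif in capitals.
RUNX2: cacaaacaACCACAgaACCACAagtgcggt
RUNX3: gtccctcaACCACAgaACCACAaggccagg
The counts were made per gene and do not separate transcripts from the different promoters, so no level below belongs to 1 promoter.

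RUNX1 (ENSG00000159216, chromosome 21, 34787801 to 36004667 on GRCh38, 17 transcripts in GENCODE 29) was higher in FLT3-ITD than in OCI-AML3 cells, with and without drug, and rose with FHD-286 in OCI-AML3. It was at 106, 113 and 104 CPM in the OCI-AML3 controls and at 141, 145 and 144 CPM with FHD-286. FLT3-ITD cells had 204, 144 and 226 CPM in controls 1, 2 and 3, and 225 and 221 CPM with FHD-286. The OCI-AML3 groups did not overlap, whereas the treated FLT3-ITD libraries lay inside the range of their controls. FLT3-ITD control 2 was the low library of its group and lay at the level of treated OCI-AML3.

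In OCI-AML3, RUNX1 rose 1.33-fold with FHD-286 (log2 0.42, SE 0.131, adjusted p = 0.0269, by the quasi-likelihood test of edgeR adjusted after Benjamini and Hochberg). Leaving out FLT3-ITD control 2 gave an adjusted p of 3.04e-06 at the same fold. That p was 0.0780 without OCI-AML3 control 1, 0.0856 without control 3, 0.0574 without treated OCI-AML3 replicate 1 and 0.0698 without treated replicate 2. The RUNX1 effect in the FLT3-ITD line was 0.22 on the log2 scale (SE 0.146, adjusted p = 0.287, edgeR) and 0.05 (SE 0.0706, adjusted p = 0.575) without control 2, so no change was called either way.

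RUNX1 differed more between the lines than it did with the drug in OCI-AML3, by the size of the fold alone. Between controls it was 1.78-fold higher in the FLT3-ITD line (log2 0.83, SE 0.132, edgeR adjusted p = 0.00203), and log2 1.00 (SE 0.0641, adjusted p = 4.02e-11) without FLT3-ITD control 2. With FHD-286 in both lines it was 1.55-fold higher (log2 0.63, SE 0.145, edgeR adjusted p = 0.0100). That last call was lost without treated FLT3-ITD replicate 1 (adjusted p = 0.0766) or replicate 2 (0.0594). In both comparisons between lines the CPM ranges of RUNX1 did not overlap.

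**Figure D1:**
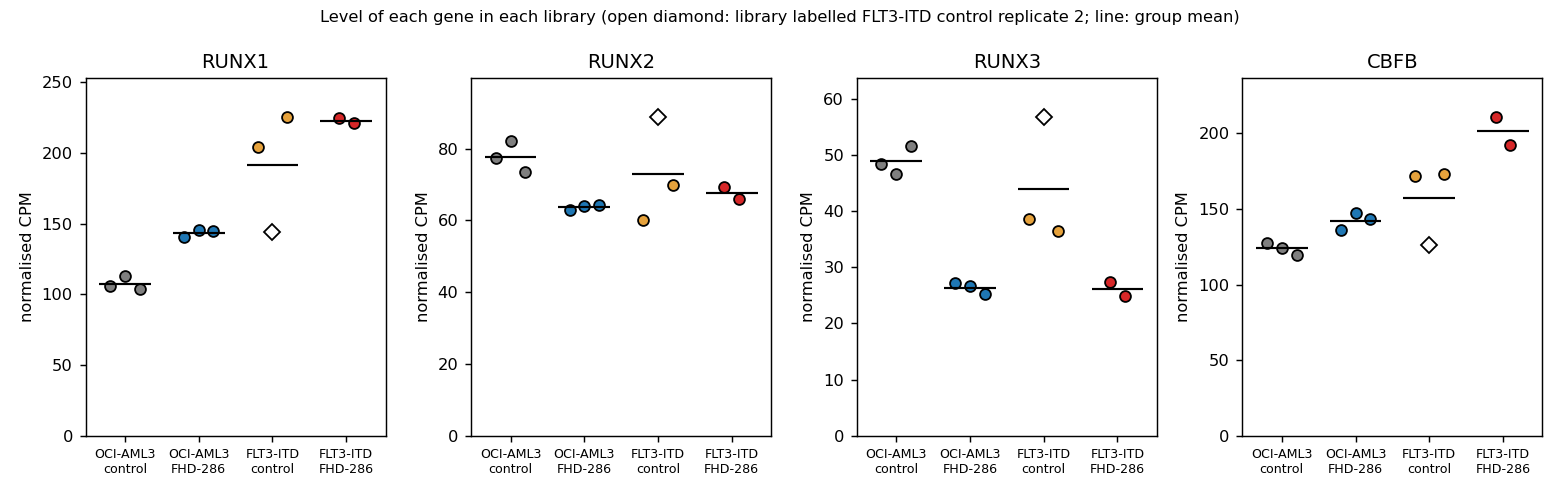
Normalised CPM (vertical axis, from 0) of RUNX1, RUNX2, RUNX3 and CBFB in each library of the 4 groups, with points for libraries, lines for group means and an open diamond for the library labelled FLT3-ITD control replicate 2. That diamond lies at 144 CPM for RUNX1, 88.9 for RUNX2, 56.8 for RUNX3 and 126 for CBFB, each time outside the range of the other FLT3-ITD controls.

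RUNX3 (ENSG00000020633, chromosome 1, 24899511 to 24965121, 5 transcripts) fell with FHD-286 in both lines. It was at 48.3, 46.6 and 51.6 CPM in the OCI-AML3 controls and at 27.2, 26.6 and 25.2 CPM with FHD-286. RUNX3 in FLT3-ITD cells was at 38.6, 56.8 and 36.4 CPM in controls and at 27.4 and 24.9 CPM with FHD-286. Treated libraries of both lines lay together below every control, and FLT3-ITD control 2 was the highest of all 11 libraries.

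The fall of RUNX3 in OCI-AML3 was -0.89 on the log2 scale (SE 0.146, edgeR adjusted p = 0.000677), a fold of 0.539. Its fall in the FLT3-ITD line was -0.75 (SE 0.165, edgeR adjusted p = 0.00651), and -0.52 (SE 0.0791, adjusted p = 1.42e-05) without FLT3-ITD control 2. Without treated FLT3-ITD replicate 2 the adjusted p was 0.0637. Between the treated groups of the lines the RUNX3 difference was -0.01 (SE 0.162, edgeR adjusted p = 0.969), with overlapping ranges. Between controls it was -0.15 (SE 0.145, adjusted p = 0.452), and -0.38 (SE 0.0720, adjusted p = 0.000159) without FLT3-ITD control 2, which makes RUNX3 lower in the FLT3-ITD line only in the latter fit.

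RUNX2 (ENSG00000124813, chromosome 6, 45328157 to 45664349, 13 transcripts) had no call in any comparison with all libraries. It was at 77.4, 82.2 and 73.4 CPM in the OCI-AML3 controls and at 62.9, 63.9 and 64.2 CPM with FHD-286. RUNX2 in FLT3-ITD cells was at 59.99, 88.9 and 69.98 CPM in controls and at 69.4 and 65.8 CPM with FHD-286. The OCI-AML3 groups did not overlap, and the treated FLT3-ITD libraries lay inside their control range, whose top was control 2.

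For RUNX2 in OCI-AML3 the FHD-286 effect was -0.29 on the log2 scale (SE 0.119, edgeR adjusted p = 0.0771). It passed the threshold without FLT3-ITD control 2 (-0.29, SE 0.0648, adjusted p = 0.000695) and without FLT3-ITD control 1 (adjusted p = 0.0227). The RUNX2 effect in FLT3-ITD cells was -0.11 (SE 0.133, edgeR adjusted p = 0.576), and 0.06 (SE 0.0792, adjusted p = 0.586) without control 2, so its sign hung on that library. Between controls RUNX2 differed by -0.09 (SE 0.119, edgeR adjusted p = 0.599), and by -0.26 (SE 0.0728, adjusted p = 0.00588) without FLT3-ITD control 2. Between treated groups the value was 0.09 (SE 0.132, edgeR adjusted p = 0.682), although the CPM ranges did not overlap.

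CBFB (ENSG00000067955, chromosome 16, 67029116 to 67101058, 9 transcripts) was higher in the FLT3-ITD line and rose there with FHD-286, with calls that were close to the threshold. It was at 128, 124 and 120 CPM in the OCI-AML3 controls and at 136, 148 and 143 CPM with FHD-286. CBFB in FLT3-ITD cells was at 172, 126 and 173 CPM in controls and at 211 and 192 CPM with FHD-286. FLT3-ITD control 2 lay within the range of the OCI-AML3 controls, and both treated FLT3-ITD libraries lay above all others.

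CBFB rose in the FLT3-ITD line by 0.36 on the log2 scale (SE 0.121, edgeR adjusted p = 0.0447), and by 0.23 (SE 0.0705, adjusted p = 0.0111) without control 2. The call was lost without any 1 of 8 libraries (all 6 of OCI-AML3 and both treated FLT3-ITD libraries), with adjusted p from 0.0616 to 0.264. In OCI-AML3 the effect was 0.20 (SE 0.109, edgeR adjusted p = 0.172), with an adjusted p of 0.00538 and the same value without FLT3-ITD control 2. Between controls CBFB was higher in the FLT3-ITD line by 0.34 (SE 0.109, edgeR adjusted p = 0.0399), and by 0.48 (SE 0.0641, adjusted p = 2.75e-06) without control 2. That call was lost without any 1 of 9 libraries (OCI-AML3 controls 1, 2 and 3, treated OCI-AML3 replicates 1 and 2, FLT3-ITD controls 1 and 3, and both treated FLT3-ITD libraries), with adjusted p from 0.0575 to 0.127. Between treated groups it was higher by 0.50 (SE 0.121, edgeR adjusted p = 0.0127), a call lost without treated FLT3-ITD replicate 1 (adjusted p = 0.122).

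**Figure D2:**
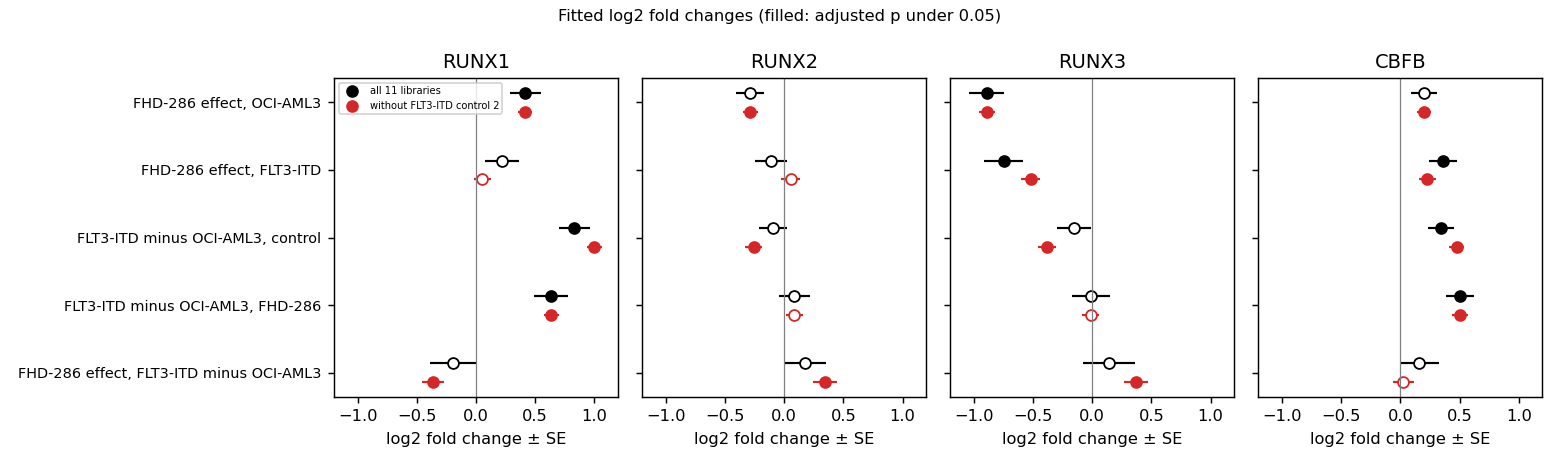
Fitted log2 fold changes with SE (horizontal axis) of the 4 genes in each of the 5 comparisons, in black from all 11 libraries and in red without FLT3-ITD control 2, with filled points where the adjusted p is under 0.05. RUNX3 lies at -0.89 and -0.75 for the FHD-286 effects in OCI-AML3 and in the FLT3-ITD line, and RUNX1 at 0.83 for the difference between controls.

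The calls among the 4 genes are given beside the share of all genes called. FHD-286 in OCI-AML3 gave 2 calls among the 4 (RUNX1 higher, RUNX3 lower), where 41.3% of all 18908 tested genes were called, 19.8% higher and 21.5% lower. All 4 had CPM ranges that did not overlap in that comparison, against 66.0% of all genes. The FLT3-ITD line gave 2 of 4 (CBFB higher, RUNX3 lower) against 30.5% (15.6% higher, 14.9% lower), and the same 2 had ranges that did not overlap, against 49.0%. Between controls 2 of 4 were called (RUNX1 and CBFB, both higher in the FLT3-ITD line) against 28.0% (14.5% higher, 13.5% lower), and ranges did not overlap for RUNX1 alone, against 36.9%. Between treated groups 2 of 4 were called (RUNX1 and CBFB, both higher) against 26.0% (14.3% higher, 11.7% lower), and 3 of 4 did not overlap, against 66.2%. Leaving out FLT3-ITD control 2 gave 4 of 4 in OCI-AML3 (2 in each direction) against 58.8% of all genes (29.8% lower, the rest higher). It gave 2 of 4 in the FLT3-ITD line, 1 in each direction, against 49.0% (24.8% higher, 24.2% lower). Between controls it gave 4 of 4, 2 in each direction, against 49.4% (24.1% higher, 25.4% lower). Between treated groups it gave 2 of 4, both higher, against 46.9% (24.2% higher, 22.8% lower). The biological coefficient of variation was 0.193 with that library and 0.0652 without it.

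Whether FHD-286 acted differently on these genes in the lines was tested as the difference of its effects, the FLT3-ITD effect minus the OCI-AML3 effect. With all libraries edgeR called 0 of 4, against 3.36% of all genes (1.98% higher, 1.38% lower), with 0 of 4 at an unadjusted p under 0.05 and 0 of 4 by the Wald test of DESeq2. The values were -0.20 for RUNX1 (SE 0.197), 0.18 for RUNX2 (SE 0.178), 0.14 for RUNX3 (SE 0.217) and 0.16 for CBFB (SE 0.164). When FLT3-ITD control 2 was left out, edgeR called 3 of 4, against 17.0% of all genes (9.63% higher, 7.39% lower). RUNX1 was then at -0.36 (SE 0.0916, edgeR adjusted p = 0.00810), from effects of 0.05 in the FLT3-ITD line and 0.42 in OCI-AML3. RUNX2 was at 0.34 (SE 0.102, edgeR adjusted p = 0.0241) and RUNX3 at 0.37 (SE 0.102, adjusted p = 0.0149). The RUNX2 effects were 0.06 in the FLT3-ITD line and -0.29 in OCI-AML3, and the decrease of RUNX3 was smaller in the FLT3-ITD line. CBFB was at 0.03 (SE 0.0912, edgeR adjusted p = 0.892). All 3 calls thus rested on leaving out that 1 library.

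Levels of different genes can be set side by side only per length of transcript, so CPM were divided by the union of annotated exons. RUNX1 then made up 25.4 ± 0.832% (SD, n = 3) of the summed RUNX level in OCI-AML3 controls and 40.4 ± 0.578% (SD, n = 3) with FHD-286. In FLT3-ITD controls its share was 40.1 ± 10.2% (SD, n = 3), from 28.3% in control 2 to 46.6% in control 3 and 45.9% on average without control 2, and 50.5 ± 0.946% (SD, n = 2) with FHD-286. RUNX1 therefore had its highest share in treated FLT3-ITD cells, and the share in FLT3-ITD controls 1 and 3 lay above that of treated OCI-AML3.

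The RUNX3 share was lower with FHD-286 in both lines. It went from 39.7 ± 2.42% (SD, n = 3) to 25.5 ± 0.924% (SD, n = 3) in OCI-AML3. Its share in the FLT3-ITD line went from 31.3 ± 6.47% (SD, n = 3), or 27.7% without control 2, to 20.4 ± 0.739% (SD, n = 2). RUNX2 held 34.9% and 34.1% in OCI-AML3 control and treated cells, and 28.7% and 29.1% in the FLT3-ITD line, where the control value was 26.4% without control 2. Shares were compared as values only, since an exact permutation test of 3 against 3 libraries cannot go below p = 0.1 and one of 3 against 2 cannot go below 0.2.

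Which RUNX gene led in OCI-AML3 controls depended on the length used. By the union of exons (15574 bases for RUNX1, 8192 for RUNX2, 4523 for RUNX3) the order was RUNX3, RUNX2, RUNX1. By the longest transcript (7274, 5877 and 4340 bases) it was RUNX1 at 37.7%, RUNX2 at 33.7% and RUNX3 at 28.7%. With the longest transcript the RUNX1 share was 53.8% in treated OCI-AML3, 53.7% in FLT3-ITD controls (59.98% without control 2) and 63.6% in treated FLT3-ITD cells, so the direction with drug was the same by both lengths.

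**Figure D3:**
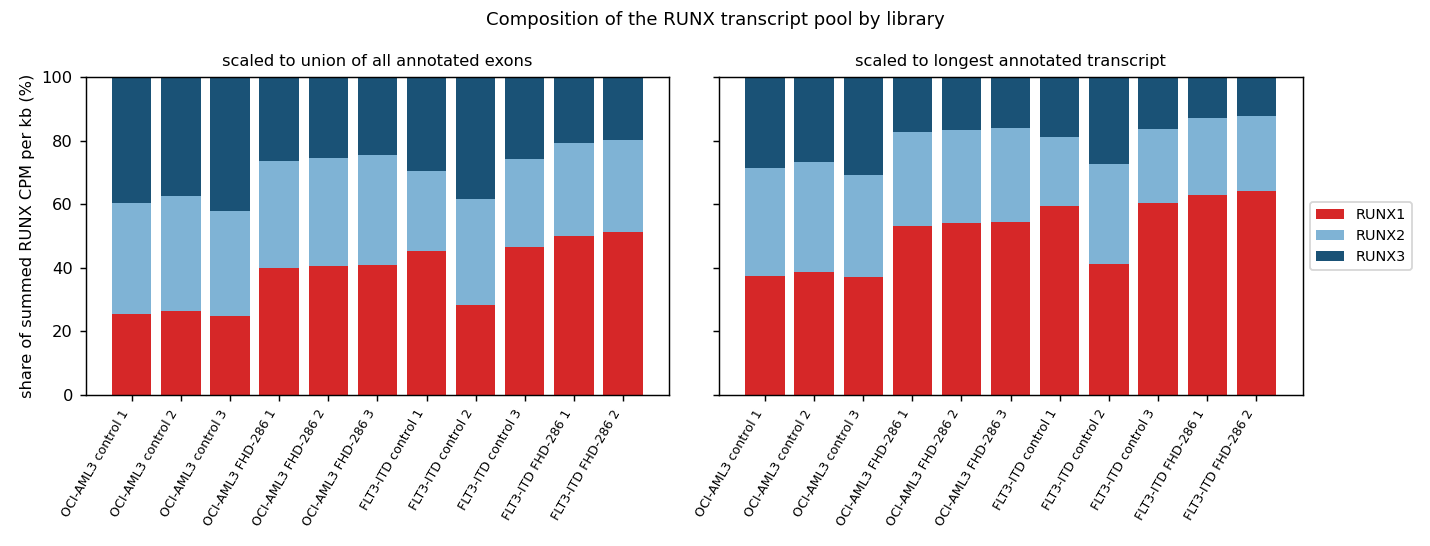
Share (%) of RUNX1, RUNX2 and RUNX3 in the summed RUNX CPM per kb in each library, scaled to the union of exons on the left and to the longest transcript on the right. By exon union RUNX1 lies between 24.7% and 26.3% in OCI-AML3 controls and at 49.8% and 51.2% in treated FLT3-ITD libraries.

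The summed RUNX level relative to CBFB was lower with FHD-286 in both lines. In CPM per kb of exon union, the RUNX sum was 27.2 in OCI-AML3 controls and 22.8 with FHD-286, while CBFB was at 30.0001 and 34.5. For FLT3-ITD cells the RUNX sum was 30.9 in controls (30.01 without control 2) and 28.3 with FHD-286, while CBFB was at 38.0 (41.8 without control 2) and 48.9. The log2 ratio of RUNX sum to CBFB was -0.14 ± 0.0514 (SD, n = 3) in OCI-AML3 controls and -0.59 ± 0.0509 (SD, n = 3) with FHD-286, with no overlap. It was -0.29 ± 0.332 (SD, n = 3) in FLT3-ITD controls, or -0.48 without control 2, and -0.79 ± 0.0505 (SD, n = 2) with FHD-286. By the longest transcript the RUNX sum was 39.3 in OCI-AML3 controls and 36.6 with FHD-286, while CBFB was at 39.5 and 45.4. For FLT3-ITD cells that sum was 48.8 in controls and 48.1 with FHD-286. CBFB there was at 50.1 (54.97 without control 2) and 64.3. These are RNA levels, and protein was not measured.

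Genes whose log2 CPM followed each member most closely over the 11 libraries were listed among 10522 genes whose mean log2 CPM was 2 or more. These are descriptions over libraries that share lines, treatment and the library that stands apart. For RUNX1 they were FOXP1 (Pearson r 0.996), P2RX7, CEP120, NIBAN1 and CCPG1 (0.991). FOXP1 encodes a forkhead transcription factor and P2RX7 an ATP-gated channel. For RUNX2 they included ANKRD17 (0.976), CYP51A1, an enzyme of cholesterol synthesis, AC004656.1 and SEPTIN7P14 (0.934), the last a pseudogene whose reads can be shared with its parent. For RUNX3 they were GLUL (0.994), the glutamine synthetase gene, PGK1, a glycolytic enzyme gene, HILPDA, NMNAT3 and NCKIPSD (0.985). For CBFB they were CEP43 (0.996), GOPC, SMAD2, which encodes a transducer of TGF-beta signals, GINM1 and SENP6 (0.988). Leaving out FLT3-ITD control 2, the lists kept 4 of 5 genes for RUNX1, 3 for RUNX2, 1 for RUNX3 and 3 for CBFB. Among the members over all 11 libraries, RUNX1 and CBFB had r = 0.936, RUNX2 and RUNX3 had 0.775, and every other pair was negative (-0.46 to -0.63). Without FLT3-ITD control 2 these values were 0.957, 0.688 and -0.45 to -0.58.

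RUNX1 works on blood enhancers beside other DNA-bound factors, among them FLI1, ERG, GATA2, TAL1, LYL1 and LMO2, the set known as the heptad when RUNX1 is counted in. Of 16 such partners listed, 14 were tested. In OCI-AML3 10 fell and 3 rose with FHD-286, with a median of -0.50 on the log2 scale against 0.01 over all genes tested. Among FLT3-ITD cells 11 fell and 0 rose, with a median of -1.13 against -0.02, or -1.02 with CEBPE at the limit that 0 counts allow. Called lower were 21.5% of all genes in OCI-AML3 and 14.9% in the FLT3-ITD line, and called higher were 19.8% and 15.6%. Without FLT3-ITD control 2, 13 were tested, with 10 lower and 3 higher in OCI-AML3 and 11 lower and 1 higher (GATA2) in the FLT3-ITD line, where the median was -0.69. Called lower were then 29.8% of all genes in OCI-AML3 and 24.2% in the FLT3-ITD line.

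FLI1, an ETS-family factor of stem cells and megakaryocytes, fell in both lines. It was at 134, 133 and 137 CPM in OCI-AML3 controls and at 52.9, 54.0 and 50.9 CPM with FHD-286. FLI1 in FLT3-ITD cells was at 138, 153 and 142 CPM and then at 43.1 and 36.6 CPM. All treated libraries lay below all controls, with log2 changes of -1.36 (SE 0.0739) and -1.86 (SE 0.0870). ERG, a related ETS factor, was at 19.0, 19.2 and 19.8 CPM in OCI-AML3 controls and at 9.02, 9.06 and 9.25 CPM with FHD-286. In FLT3-ITD controls it was at 4.42, 13.7 and 4.90 CPM, and at 1.90 and 1.71 CPM with FHD-286. ERG fell by 1.09 on the log2 scale in OCI-AML3 and by 2.09 in the FLT3-ITD line, or by 1.37 there without control 2, again the library nearest to OCI-AML3. The OCI-AML3 call of ERG was lost without any 1 of its 6 libraries (edgeR adjusted p from 0.0619 to 0.0857).

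TAL1 and LYL1, related helix-loop-helix factors, fell as well. TAL1, whose exons overlap another gene over 14.8% of their length, changed by -0.82 in OCI-AML3, lost without any 1 of 4 of its libraries (controls 1 and 3, treated 2 and 3), and by -1.48 in the FLT3-ITD line. LYL1 changed by -2.00 and -1.75. LMO2, the bridging protein of that complex, went the other way in OCI-AML3. It was at 185, 178 and 190 CPM in controls and 340, 345 and 334 CPM with FHD-286 (0.88, SE 0.167, edgeR adjusted p = 0.00166). LMO2 in FLT3-ITD cells was at 156, 255 and 149 CPM in controls and at 144 and 147 CPM with FHD-286 (-0.36, edgeR adjusted p = 0.169, and -0.07 without control 2). GATA2 was not called in either line (-0.35 with adjusted p = 0.405, and -0.29 with adjusted p = 0.575, edgeR). GATA2 without FLT3-ITD control 2 was called lower in OCI-AML3 (-0.34) and higher in the FLT3-ITD line (0.30).

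SPI1, the gene of the myeloid factor PU.1 and a known direct target of RUNX1, was among the partners that fell, by 2.84 on the log2 scale in OCI-AML3 and by 3.62 in the FLT3-ITD line. It was at 310, 303 and 345 CPM in OCI-AML3 controls and at 42.2, 49.1 and 42.2 CPM with FHD-286. SPI1 in FLT3-ITD cells was at 316, 284 and 271 CPM and then at 23.1 and 24.1 CPM, with no overlap in either line. ETS1 and GFI1, an ETS factor and a zinc-finger repressor, rose in OCI-AML3 (0.88 and 0.56) and fell in the FLT3-ITD line (-0.26 and -0.42). The FLT3-ITD call of ETS1 was lost without any 1 of 6 libraries (OCI-AML3 control 1, treated OCI-AML3 1 and 2, FLT3-ITD control 3 and both treated FLT3-ITD libraries), and that of GFI1 without treated FLT3-ITD replicate 1. CEBPE, a factor of late granulocyte maturation, had 22 counts over OCI-AML3 controls and 0 over treated libraries, at least 3.27-fold lower, taking 3 counts per library as the floor. CEBPE in FLT3-ITD cells had 20 and 0 counts, at least 2.40-fold lower, with an edgeR adjusted p of 0.0681. With FLT3-ITD control 2 left out, CEBPE did not pass the count filter.

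**Figure D4:**
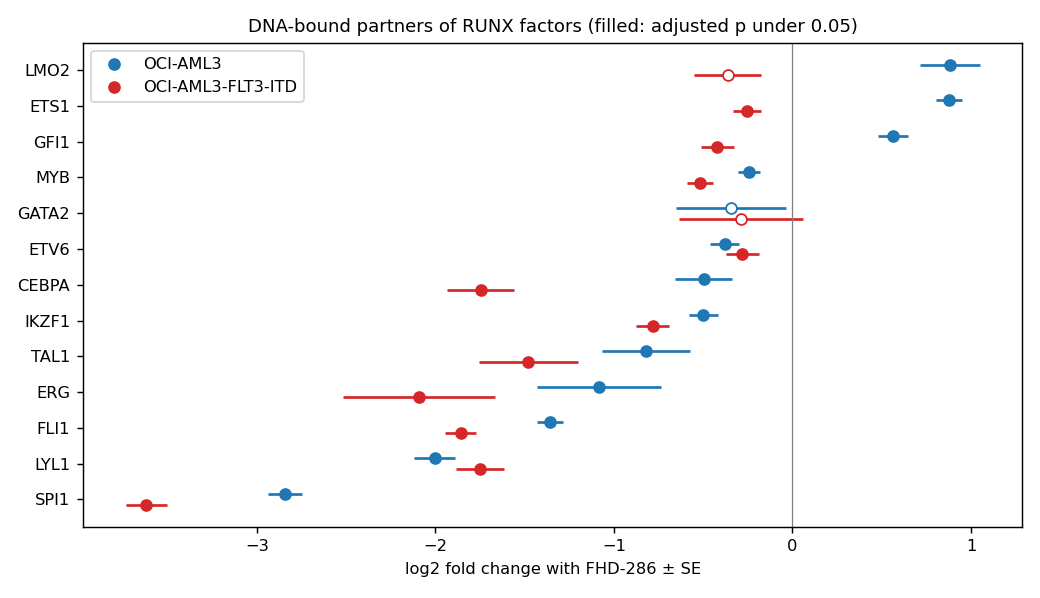
Log2 fold change with FHD-286 and SE (horizontal axis) of the DNA-bound partners of RUNX factors in OCI-AML3 (blue) and OCI-AML3-FLT3-ITD (red), filled where the adjusted p is under 0.05 and with CEBPE left out because treated libraries had 0 counts. LMO2, ETS1 and GFI1 lie at 0.88, 0.88 and 0.56 in OCI-AML3 and below 0 in the FLT3-ITD line.

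Coregulators carry the activating and repressing functions of RUNX proteins. Of 22 listed, 21 were tested. In OCI-AML3 6 rose and 8 fell (median 0.19), and in the FLT3-ITD line 4 rose and 5 fell (median 0.19). Over all genes 19.8% were called higher and 21.5% lower in OCI-AML3, and 15.6% and 14.9% in the FLT3-ITD line, with medians of 0.01 and -0.02. Coregulator counts without FLT3-ITD control 2 were 11 higher and 9 lower (median 0.19), and 12 higher and 6 lower (median 0.32). All-gene shares then were 58.8% called in OCI-AML3, 29.8% of all genes lower, and 24.8% higher and 24.2% lower in the FLT3-ITD line. The steepest was CBFA2T3, which encodes the ETO-family corepressor ETO2. CBFA2T3 was at 53.3, 51.8 and 58.2 CPM in OCI-AML3 controls and at 5.86, 5.89 and 5.59 CPM with FHD-286 (-3.24, SE 0.0852). CBFA2T3 in FLT3-ITD cells was at 39.6, 43.8 and 41.7 CPM and then at 7.91 and 7.18 CPM (-2.47, SE 0.0965), and neither line overlapped with its control. PRMT1, which methylates RUNX1, fell by 0.73 and 0.59 on the log2 scale. TLE3, a Groucho corepressor that binds the end of RUNX proteins, fell by 0.51 and 0.54. HDAC1, a histone deacetylase, rose by 0.29 and 0.38, the latter lost without either treated FLT3-ITD library. YAP1, the Hippo-pathway coactivator, was at low level and rose in both lines (0.99 and 1.40). The first YAP1 call was lost without any 1 of the 6 OCI-AML3 libraries and the second without treated FLT3-ITD replicate 2.

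Enzymes that modify or degrade RUNX proteins were listed as 17 genes, all tested. In OCI-AML3 3 rose and 6 fell (median 0.00), and in the FLT3-ITD line 6 rose and 1 fell (median 0.20). The 3 of 17 that rose in OCI-AML3 stand beside 19.8% of all genes, the 6 that fell beside 21.5%, and the FLT3-ITD counts beside 15.6% higher and 14.9% lower. Such counts without FLT3-ITD control 2 were 5 higher and 7 lower (median 0.00), and 9 higher and 2 lower (median 0.26), the latter beside 24.8% and 24.2% of all genes. SKP2, of a ubiquitin ligase for RUNX proteins, was at 150, 145 and 150 CPM in OCI-AML3 controls and at 92.0, 96.8 and 91.8 CPM with FHD-286 (-0.67). It was at 109, 90.6 and 105 CPM in FLT3-ITD controls and at 111 and 108 CPM with FHD-286 (0.11, edgeR adjusted p = 0.339, and 0.04 without control 2). CDK1 and CDK2, cell-cycle kinases that phosphorylate RUNX proteins, were lower in treated OCI-AML3 (-0.32 and -0.37) and higher in treated FLT3-ITD cells (0.50 and 0.42). The CDK1 call in OCI-AML3 was lost without control 1, treated 1 or treated 3, and both calls in the FLT3-ITD line without treated replicate 1. STUB1, a ubiquitin ligase gene with 42.4% of its exon length shared with another gene, fell by 0.55 and 0.57, the latter lost without FLT3-ITD control 1 or treated replicate 1.

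Known RUNX1 targets in blood cells changed in both directions. Of 25 listed, 20 were tested, and in OCI-AML3 9 fell and 5 rose (median -0.37). Among FLT3-ITD cells 11 fell and 3 rose (median -0.78). The shares over all genes were 21.5% lower and 19.8% higher in OCI-AML3, and 14.9% lower and 15.6% higher in the FLT3-ITD line. Without FLT3-ITD control 2, 19 were tested, with 10 lower and 7 higher (median -0.25), and 11 lower and 5 higher (median -0.61), the latter beside 24.2% lower and 24.8% higher over all genes. CSF1R, the receptor of a macrophage growth factor, was at 7.31, 5.75 and 7.38 CPM in OCI-AML3 controls and at 0.0670, 0.0778 and 0.0648 CPM with FHD-286 (-6.57, SE 0.437). CSF1R in FLT3-ITD cells was at 12.5, 7.92 and 13.3 CPM and then at 0.0137 and 0.134 CPM (-7.17, SE 0.525), so the treated libraries were near the limit of detection. The granule protease gene PRTN3 changed by -3.67 and -3.15, and MPO, the gene of myeloperoxidase, by -1.50 and -3.14. CD36, a scavenger receptor gene, rose by 0.87 and 1.03, and CDKN1A, a cell-cycle inhibitor gene, by 0.58 and 0.91. Several of these genes, such as SPI1, are also partners or myeloid markers, and the summed myeloid markers were at 1114 to 1150 CPM in OCI-AML3 controls, 784 to 840 with FHD-286, 1165 to 1452 in FLT3-ITD controls and 645 to 658 with FHD-286. The markers did not move as 1 set. In OCI-AML3 4 were called lower and 2 higher (ANPEP, mean 20.2 to 67.5 CPM, and PTPRC, 274 to 377 CPM). In the FLT3-ITD line 4 were lower and 1 higher (ANPEP, 14.9 to 32.3 CPM). The all-gene shares with all libraries given above (21.5% lower and 19.8% higher, then 14.9% and 15.6%) stand beside these marker counts too. The part of these marker changes in the target counts was not tested.

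Targets known from the tissues of the other members were mostly not expressed. Of 11 skeletal genes that RUNX2 regulates, 4 were tested. In OCI-AML3 MMP9, a gelatinase gene, fell by 2.82 and VEGFA, a vascular growth factor gene, rose by 0.37. MMP9 in FLT3-ITD cells fell by 3.20, and it was the 1 call with all libraries. Without FLT3-ITD control 2 all 4 were called in OCI-AML3, 2 higher (VEGFA and SPP1) and 2 lower (MMP9 and MMP13). In the FLT3-ITD line 3 were then lower (MMP9, MMP13 and VEGFA, the last at -0.34) and 0 higher. Over all genes 41.3% were called in OCI-AML3 and 30.5% in the FLT3-ITD line, and 58.8% and 49.0% without control 2. MMP13 and SPP1, a collagenase gene and the osteopontin gene, had means under 1 CPM in every group. VEGFA in OCI-AML3 lost its call without any 1 of 8 libraries (all 6 of OCI-AML3 and both treated FLT3-ITD libraries). MMP9 shares 18.4% of its exon length with another gene. Of 9 lymphoid genes that RUNX3 regulates, 4 were tested (ITGAE, EOMES, BCL2L11 and ZBTB7B). In OCI-AML3 edgeR called 0 of them, beside 41.3% of all genes, with 0 at an unadjusted p under 0.05 and 0 by the Wald test of DESeq2. With only the groups compared it called 1 of them (BCL2L11), and library totals or leaving out FLT3-ITD control 2 gave 0 calls with 1 at an unadjusted p under 0.05. EOMES, a T-box factor of cytotoxic lymphocytes, fell by 2.08 in FLT3-ITD cells. EOMES was at 3.54, 0.924 and 3.87 CPM in those controls and at 0.645 and 0.671 CPM with FHD-286, and its call was lost without either treated library.

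The loci of the 4 genes were examined for neighbours that differed in the same way between the control groups. Within 1 Mb of RUNX1, 25 other genes were tested, of which 3 were higher in the FLT3-ITD line and 1 lower, beside 14.5% and 13.5% of all genes. Without FLT3-ITD control 2, 24 were tested, with 6 higher and 2 lower, beside 24.1% and 25.4%. With all libraries the higher ones were LINC01426 (1.58), LINC01436 (1.35) and MORC3 (0.23), and the lower one was RCAN1 (-0.49), names chosen in part after their values were seen. LINC01426, a non-coding RNA 2.92 kb past the downstream end of the RUNX1 gene, was at 0.512, 0.469 and 0.359 CPM in OCI-AML3 controls. In FLT3-ITD controls it was at 1.88, 0.650 and 1.47 CPM. Control 2 was again the low library. Over 218 other tested genes of chromosome 21 the median was -0.18 (-0.41 without FLT3-ITD control 2), while RUNX1 was at 0.83.

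Around RUNX3 and CBFB the neighbours differed in both directions. Of 26 genes near RUNX3, 4 were higher and 6 lower in FLT3-ITD controls, beside 14.5% and 13.5% of all genes. Without control 2, 7 of these were higher and 8 lower, beside 24.1% and 25.4%. Among them CLIC4, a chloride channel gene 55.2 kb away, was at 77.7, 71.5 and 69.1 CPM in OCI-AML3 controls and at 243, 135 and 253 CPM in FLT3-ITD controls (1.53). RUNX3 itself was at -0.15, and at -0.38 without control 2. Near RUNX2, 1 of 8 was higher (CLIC5, at under 0.4 CPM in every library) and 0 were lower. Without control 2 the pre-mRNA splicing factor gene CDC5L, at a mean of 125 CPM in OCI-AML3 controls and 161 in all 3 FLT3-ITD controls, was called too (0.56, edgeR adjusted p = 9.82e-08). Near CBFB, 8 of 62 were higher and 11 lower, and 14 of 61 and 19 without control 2. The same all-gene shares stand beside the counts near RUNX2 and CBFB. The neighbours E2F4, a cell-cycle repressor gene, and PHAF1 were lower in FLT3-ITD controls (-0.46 and -0.30), while CBFB was higher (0.34). With FHD-286, 3 of the 25 genes near RUNX1 were higher and 4 lower in OCI-AML3, and 2 higher and 3 lower in the FLT3-ITD line. Near RUNX3 these counts were 2 and 6, then 3 and 2. Beside them, 19.8% of all genes were called higher and 21.5% lower in OCI-AML3, and 15.6% and 14.9% in the FLT3-ITD line. Without control 2 the counts near RUNX1 were 4 and 5, then 3 and 3, of 24. Those near RUNX3 were 5 and 7, then 6 and 5. All-gene shares then were 58.8% called in OCI-AML3, 29.8% of all genes lower, and 24.8% higher and 24.2% lower in the FLT3-ITD line.

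**Figure D5:**
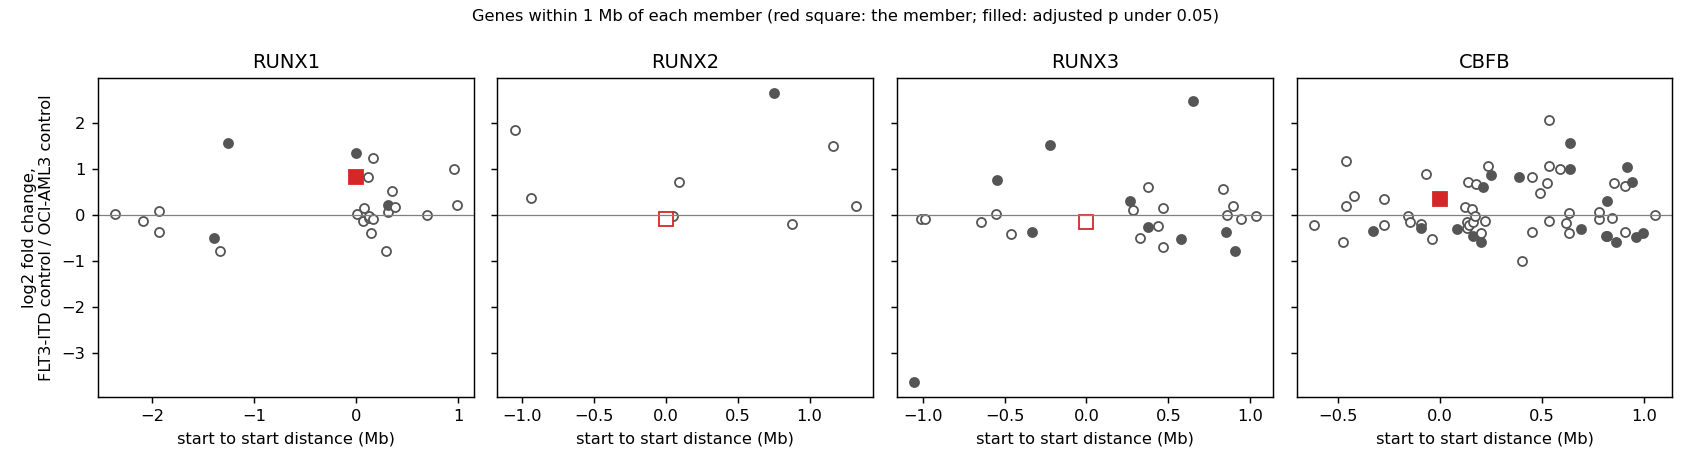
Log2 fold change between FLT3-ITD and OCI-AML3 controls (vertical axis) of genes within 1 Mb of each member against the distance between annotated start sites (Mb, horizontal axis), with red squares for the members and filled symbols where the adjusted p is under 0.05. Most neighbours of RUNX1 lie near 0, while RUNX1 lies at 0.83 and LINC01426 at 1.58.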

How the data were processed

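The authors deposited raw whole-number counts per gene. Per the submitters' processing notes, STAR and hg38 were used. How reads were counted, with which strand setting and annotation, is not given in the sources used here. Of 58037 identifiers, 57433 were found in GENCODE 29 on GRCh38, the source of coordinates and lengths. No exon of the 4 genes overlapped another gene.

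Genes were kept by filterByExpr (minimum count 10, minimum total 15), which left 18908. TMM factors scaled the raw counts for the quasi-likelihood model of edgeR 4.0.16 in R 4.3.3, with 1 mean per group over all 11 libraries. Tests were two-sided, with Benjamini-Hochberg adjustment over all genes tested and a threshold of 0.05. SE was taken as the size of log2 fold change over the root of F. CPM used the same factors. DESeq2 1.42.0, other scalings, filters, groups in the fit, a replicate block and leaving out each library were alternatives. Code was tested on simulated counts.

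Named genes were the members, FLT3, the heptad partners, fixed neighbours, genes most like each member (Pearson r of log2 CPM plus 0.1), all genes of lists with up to 7 measured genes, and the 4 largest called changes in each direction per list. Members and lists were chosen with earlier results of these data known. No promoter entry was matched for CBFB. Some genes that the rule names are not reported here.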

Additional observations from a re-analysis of the deposited data

Results flagged for a closer look

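For 11 of 56 genes named from the RUNX-related gene lists, the FHD-286 effect differed between the lines in edgeR's test of the difference itself (FLT3-ITD effect minus OCI-AML3 effect, log2, Benjamini-Hochberg adjustment). The lines' effects had opposite signs and both passed the test for ETS1 (-1.13, adjusted p = 0.00125), GFI1 (-0.99, adjusted p = 0.00358), CDK1 (0.82, adjusted p = 0.0119) and CDK2 (0.79, adjusted p = 0.0116). The OCI-AML3 effect alone passed for LMO2 (-1.25, adjusted p = 0.0262), SKP2 (0.78, adjusted p = 0.00581) and SUV39H1, a histone methyltransferase gene (0.60, adjusted p = 0.0454). Both effects were decreases for CBFA2T3, larger in OCI-AML3 (0.77, adjusted p = 0.00858). For FLI1 (-0.50, adjusted p = 0.0356), SPI1 (-0.78, adjusted p = 0.0128) and MPO (-1.64, adjusted p = 0.0225) both were decreases, larger in the FLT3-ITD line. Over all genes 3.36% were called for this difference, and the 56 include the largest called drug effects of each list, so the counts are not set against each other. All 11 kept their sign and an edgeR adjusted p under 0.05 without FLT3-ITD control 2.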

How the results depend on the processing

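The called directions of RUNX1 and RUNX3 were the same under every alternative run. Library totals, which moved the median of all genes in OCI-AML3 from 0.01 to 0.17, gave 0.00472 for RUNX2 between controls and 0.034 for RUNX3 between treated groups, and the stricter filter gave 0.0030 for the latter. Neither was called. CBFB in OCI-AML3 passed the threshold with upper quartile scaling (0.27), library totals (0.35) or only the groups compared (0.21). In the FLT3-ITD line CBFB missed it with DESeq2 size factors (0.34) or only the groups compared (0.34), as it did between controls with only those groups (0.39). With only the groups compared RUNX2 in OCI-AML3 passed (-0.27), RUNX3 in the FLT3-ITD line did not (-0.77), and calls over all genes were 1618 in the FLT3-ITD line, 1736 between controls and 9581 between treated groups. The difference between lines gave 635 calls, and 1467 with DESeq2's Wald test. By longest transcript the RUNX1 share was 37.7%, 53.8%, 53.7% and 63.6%. The log2 ratio of RUNX sum to CBFB was then -0.0086 in OCI-AML3 controls and -0.31 in treated OCI-AML3. It was -0.023 in FLT3-ITD controls (-0.16 without control 2) and -0.42 in treated FLT3-ITD cells. The cause of these shifts was not tested.

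With the replicate number as a replicate block the difference between lines gave 349 calls, and CBFB missed the threshold in the FLT3-ITD line (0.38, edgeR adjusted p = 0.0538) and between controls (0.34, 0.0559). The numbers did not pair the libraries. Correlations of same-numbered libraries ran from -0.11 to 0.19, and 4 of 11 libraries correlated best with their own number.

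Leaving out 1 library gave from 2908 to 9140 calls in the FLT3-ITD line, 105 to 3177 for the difference, 2914 to 9223 between controls and 1909 to 8756 between treated groups. Where 1 treated FLT3-ITD library was left, its spread was taken from the other groups. RUNX1 ran from 0.39 to 0.45 in OCI-AML3, from -0.36 to -0.062 for the difference and from 0.62 to 0.65 between treated groups. RUNX2 ran from -0.33 to -0.24 in OCI-AML3, -0.23 to 0.057 in the FLT3-ITD line, 0.051 to 0.34 for the difference and -0.26 to 0.036 between controls. RUNX3 ran from -0.87 to -0.52 in the FLT3-ITD line, 0.021 to 0.37 for the difference, -0.38 to -0.031 between controls and -0.084 to 0.056 between treated groups. CBFB ran from 0.17 to 0.23 in OCI-AML3, 0.23 to 0.44 in the FLT3-ITD line, 0.27 to 0.48 between controls and 0.43 to 0.57 between treated groups.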
